A study of Apis mellifera with 27 samples.

Results

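The long stretches of honey bee DNA that lie between genes were examined for 4 modifications of histone H3. A long gap was defined as a stretch of at least 50 kb between neighbouring genes of any biotype in the RefSeq gene table of the assembly Amel_HAv3.1, after overlapping genes had been merged, on chromosomes 1 to 16. This gave 202 gaps with 20.7 Mb, which is 9.40% of the chromosomes and 40.7% of all sequence between genes. A member is a peak that lies wholly inside such a gap. There were 38386 members among 436257 peaks of 24 lists, or 8.80%. The shortest gap had 50220 bp, the median was 79.7 kb, and the longest had 554483 bp. Protein-coding genes flanked 101 gaps on both sides and 79 gaps on 1 side, and 22 gaps had only non-coding neighbours. The rule uses the positions of genes alone and no value of any mark.

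The study profiled central brains, with the optic lobes removed, of newly emerged drones, queens and workers of Apis mellifera. Drones are haploid males that develop from unfertilised eggs, and queens and workers are diploid females that can arise from the same genotype and differ in larval diet. All bees came from the same mother queen, and each library was a pool of 5 brains. Chromatin immunoprecipitation and sequencing (ChIP-seq) was done with antibodies against H3K27ac, H3K27me3, H3K4me1 and H3K4me3, with 2 libraries for each caste and mark. Pools from 1 colony background limit what the spread between libraries covers, and a difference between drones and females is one of sex and ploidy as well as caste, which cannot be told apart here. Among genes known by name, the neuronal genes Syt1, brp and Syx1A and the glial transporter gene Eaat-2 carried H3K27ac and H3K4me3 peaks in all 6 libraries of each mark, and the gland genes Mrjp1, Mrjp2, Mrjp3 and Mrjp5 carried no H3K27ac peak in any. An H3K4me3 peak lay at Mrjp1 in 1 library. H3K27me3 lay at Eaat-2 in 2 libraries and at Mrjp1 and Mrjp5 in 1 each. The muscle gene TpnT carried H3K27ac in 4 libraries, H3K4me3 in 4 and H3K27me3 in 6. Tags per library, estimated from the lowest local background behind the deposited folds and p-values, numbered 4.20 to 25.1 M (M for mega). In each mark this estimate was lower in both drone libraries than in all 4 female ones. It is not the sequenced depth, as the study's counts of mapped reads do not place drones below all females in any mark. Since the libraries of a caste are pools of bees of 1 mother, p-values measure only the spread between these pools.

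H3K27me3 is laid down by Polycomb repressive complex 2 and marks silenced developmental genes, often as broad domains of many kilobases. H3K27ac marks active enhancers and promoters and sits on the same lysine, so that a single histone tail cannot carry both. H3K4me1 is typical of enhancers, active or poised, and H3K4me3 of the starts of transcribed genes. Sequence far from any gene can hold distal enhancers, unannotated transcripts and repeats. The gene table used here gives no strand and no exons, so a distance is to the nearer end of a gene.

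H3K27me3 was the most frequent mark in the long gaps. It supplied 27741 members, which is 72.3% of all members, although it made up 32.3% of the peaks of all lists. Between 198.9 and 234.4 H3K27me3 peaks per Mb lay in the gaps in the 6 libraries, against 87.9 to 98.8 per Mb in the rest of the chromosomes. The groups did not overlap, and the ratio was 2.37-fold, or 1.24 ± 0.037 on the log2 scale (SD, n = 6, exact sign-flip test over libraries, two-sided, adjusted p = 0.03125, the smallest this test can give). H3K27me3 peaks covered 12.3% to 13.8% of the gap sequence, against 4.99% to 5.65% of the rest. Set against the 760 gaps of 10 to 50 kb instead, the excess shrank to 0.14 ± 0.037 on the log2 scale (adjusted p = 0.03125, exact sign-flip test, n = 6), with 198.9 to 234.4 peaks per Mb in long gaps and 184.5 to 216.1 in these shorter gaps.

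The other marks were sparser in the gaps than elsewhere in every library. H3K27ac had 20.6 to 29.2 members per Mb, against 104.8 to 128.1 peaks per Mb in the rest, a log2 ratio of −2.25 ± 0.116. H3K4me3 had 2.75 to 14.95 members per Mb, against 18.3 to 47.7 in the rest, with a log2 ratio of −2.24 ± 0.60. H3K4me1 had 33.5 to 67.5 members per Mb, against 58.2 to 110.7 in the rest, and a log2 ratio of −0.73 ± 0.060. Each of the 3 deficits had an adjusted p of 0.03125 in the exact sign-flip test (n = 6 libraries). Against gaps of 10 to 50 kb the log2 ratios were −1.38 for H3K27ac, −0.67 for H3K4me1 and −0.62 for H3K4me3. The share of a library's peaks that lay in long gaps was 19.0% to 20.1% for H3K27me3, 5.64% to 6.30% for H3K4me1, 1.89% to 2.31% for H3K27ac and 1.07% to 3.58% for H3K4me3. H3K27me3 exceeded the other marks by 17.6 percentage points (H3K27ac), 13.8 (H3K4me1) and 17.4 (H3K4me3), each with p = 0.00216 in an exact permutation test of 6 libraries against 6, the smallest possible.

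**Figure D1:**
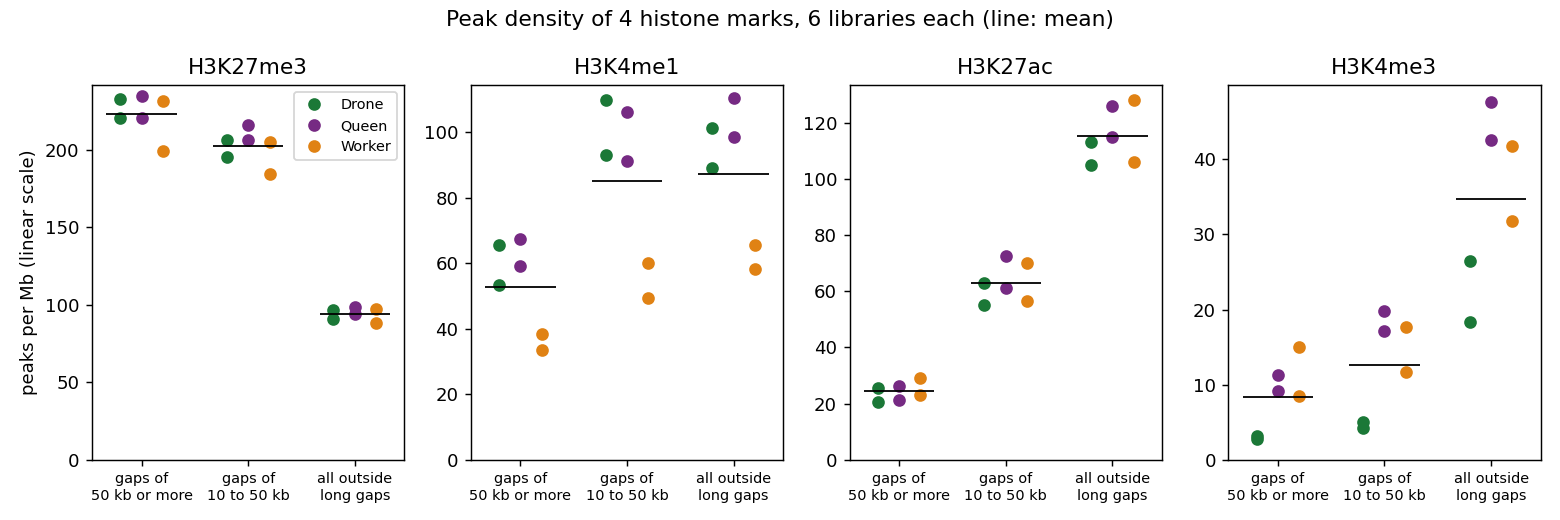
Peaks per Mb (linear axis) in gaps of 50 kb or more, in gaps of 10 to 50 kb and in all sequence outside the long gaps, for 4 marks; each point is 1 library and the line is the mean of 6. H3K27me3 is denser in both kinds of gap than outside, and the other marks are sparser in long gaps than in either of the other classes on average.

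Members also differed from other peaks in fold. Fold is the enrichment of a peak's summit over its local background as the peak caller gave it. The median member stood at the 6.25th to 32.4th percentile of its library's folds for H3K4me3 and at the 27.6th to 31.1st for H3K27ac, so most members of these marks had a lower fold than their library's median peak. The summit pileup, the number of tags at the peak, differed little for H3K27ac, with median members at 58.5 tags in drones, 83 in queens and 101.5 in workers, against 59.5, 84 and 103 for other peaks (means of 2 libraries). The local background, as a multiple of the genome-wide one, was higher under H3K27ac members, at 3.21 in drones, 2.94 in queens and 2.93 in workers, against 2.52, 2.31 and 2.34 under other peaks. H3K4me3 members had a higher pileup than other peaks in drones, at 56.75 against 46.5 tags, over a background of 4.05 against 2.27. In females their pileup was lower, at 49.5 against 69 tags in queens and 50 against 71.5 in workers, over a similar background. The medians for H3K4me1 lay between the 38.6th and 47.8th percentiles and those for H3K27me3 between the 43.0th and 49.6th. The median width of members over that of all other peaks was 0.099 ± 0.018 on the log2 scale for H3K27me3 and −0.38 ± 0.0998 for H3K4me3, and both missed the threshold after adjustment (exact sign-flip test, n = 6, adjusted p = 0.0625). With protein-coding genes alone setting the gaps both passed, at 0.11 and −0.32 (exact test, n = 6, adjusted p = 0.0417). The difference was −0.036 ± 0.030 for H3K27ac (adjusted p = 0.0833) and −0.0067 ± 0.039 for H3K4me1 (adjusted p = 0.75) in the same exact test. With protein-coding genes alone that of H3K27ac turned to 0.049 (exact test, adjusted p = 0.0417).

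The gaps were far from uniform. The mean H3K27me3 density of a gap over 6 libraries had a lower quartile of 7.42 members per Mb, a median of 147.4, an upper quartile of 465.9 and a maximum of 907.2. There were 55 gaps with at least 400 H3K27me3 members per Mb, and these 5.25 Mb held 69.9% of the H3K27me3 members. Another 67 gaps had fewer than 20 per Mb. Typical gaps of both kinds were of similar length, with medians of 79.3 kb in the filled class and 80.3 kb in the empty class. The 20 kb on either side of a gap followed the gap: H3K27me3 covered 30.4% of the flanks of the filled gaps and 0.350% of the flanks of the empty ones. Across the 202 gaps the H3K27me3 coverage of gap and flanks had a Spearman rho of 0.90 and a Pearson r of 0.84, given as a description, since gap and flank share libraries. The filled gaps held 11.7 H3K27ac, 82.7 H3K4me1 and 4.19 H3K4me3 members per Mb, and the empty gaps 36.8, 36.9 and 9.65 per Mb of these marks.

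**Figure D2:**
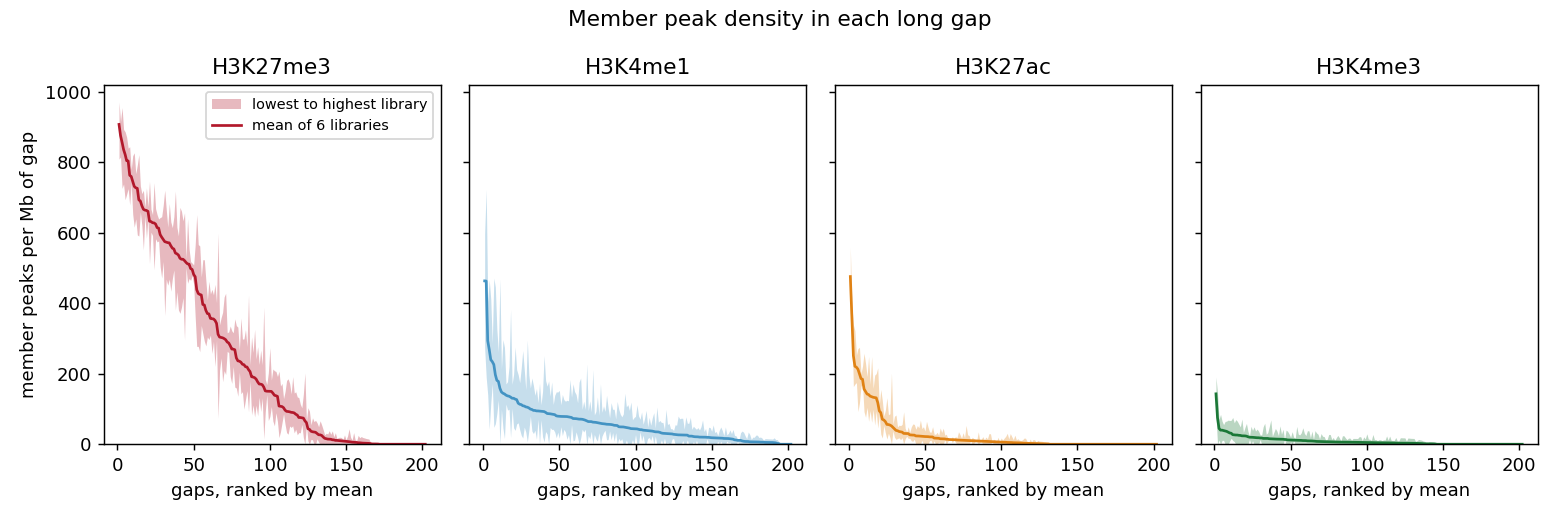
Member peaks per Mb in each of the 202 gaps, ranked by the mean of 6 libraries separately for each mark; the line is the mean and the band spans the lowest to the highest library. H3K27me3 declines from a maximum of 907.2 per Mb to a median of 147.4, whereas H3K27ac is concentrated in a few gaps at the left of its panel.

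The gap with the most H3K27me3 members per Mb lay between the protein-coding genes LOC410633 and LOC552099 (chr15:3076632-3181719, 105.1 kb). It held 97 and 98 members in drones, 102 and 99 in queens and 91 and 85 in workers, which cover 47.7% of it on average. No H3K27ac and no H3K4me3 member was called there in any library. The gap from LOC551045 to LOC100576573 (chr6:10867262-11046449, 179.2 kb) had 155 and 163 H3K27me3 members in drones, 164 and 158 in queens and 155 and 146 in workers, which cover 51.0%, again without H3K27ac or H3K4me3. The third was the 52.4 kb from LOC410464 to the microRNA gene Mir6066 (chr13:7096589-7148946), with 44 and 50, 49 and 46, and 42 and 38 members in drones, queens and workers. These 3 gaps were chosen as the densest by the mean of 6 libraries. In each, the lowest count of the 6 libraries was that of worker replicate 2.

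H3K27me3 members formed long runs. With peaks joined where they lay no more than 3 kb apart, the longest run in a library spanned 138.7 to 177.2 kb and held 119 to 163 peaks. On average 68.4% ± 4.38 of H3K27me3 members sat in runs of 10 or more peaks, against 59.9% ± 3.37 of the H3K27me3 peaks elsewhere (SD, n = 6, no test). For H3K27ac these shares were 9.87% ± 1.94 of members and 26.8% ± 3.17 of other peaks. H3K27me3 peaks thus stood in runs more often than H3K27ac peaks both in the gaps and elsewhere, by these shares.

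Density differed with the length of the gap. Gaps of 50 to 75 kb held 213.7 H3K27me3 members per Mb, those of 75 to 100 kb 259.1, those of 100 to 150 kb 308.2 and those of 150 to 200 kb 275.8 (means of 6 libraries). The 11 gaps of 200 kb or more held 46.8 ± 10.9 per Mb (SD, n = 6). Of their 1027 H3K27me3 members, 615 lay in a single gap, from LOC113218598 to LOC408702 (chr2:8276170-8658616, 382.4 kb), and the other 10 gaps held 21.0 ± 6.05 per Mb. H3K4me1 also was lowest in the longest class, with 25.5 members per Mb against 50.0 to 65.6 in the shorter classes.

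The longest gap of all was almost bare. The 554.5 kb between LOC113218735 and LOC102656302 (chr4:1198581-1753063) held no H3K27ac and no H3K27me3 member in any library. It had 4 and 2 H3K4me1 members in queens and none in drones and workers, and between 0 and 2 H3K4me3 members per library. The second longest, from LOC412100 to LOC102653951 (chr15:49041-481568, 432.5 kb), carried 7 to 17 H3K4me1 members per library and 0 or 1 H3K27me3 member. From LOC113219035 to LOC100578623 (chr10:1279923-1657373, 377.5 kb) there was no H3K27ac member. From LOC102656403 to LOC113218567 (chr7:6764284-7130503, 366.2 kb) H3K4me1 had 10 to 29 and H3K4me3 1 to 18 members per library. A further 5 gaps held no member of any mark in any library, and the longest of these was the 167.5 kb between LOC102654940 and LOC409869 on chromosome 10. Mappability of these stretches was not examined.

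Gaps on either side of the 50 kb limit also varied widely. Just inside it, the gap from LOC413242 to LOC100578555 (50.2 kb) had 225.7 H3K27me3 members per Mb, that from LOC724655 to LOC102655889 (50.4 kb) 9.91 and that from LOC100577920 to LOC100577882 (50.5 kb) 524.7. Just outside, the values were 114.8 from LOC410480 to LOC725033 (49.4 kb), 0 from LOC102654883 to LOC113219114 (49.2 kb) and 23.9 from LOC100578698 to LOC100578828 (48.8 kb).

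Within the gaps the density of some marks differed between sequence far from genes and sequence near them. Each gap adds the same length to the near class, while longer gaps add more to the far class. Distance and gap length are therefore mixed in these ratios, and the part of gap length was not tested. H3K27ac had 35.6 members per Mb in gaps of 50 to 75 kb and 10.2 to 29.1 in the longer classes (means of 6 libraries). H3K27ac members were at 19.6 ± 2.93 per Mb at 20 kb or more from a gene and at 39.0 ± 5.25 per Mb within 5 kb, a log2 ratio of −0.995 ± 0.104. H3K4me1 had 46.2 ± 12.5 per Mb far from genes and 69.9 ± 17.6 near them, a log2 ratio of −0.60 ± 0.099. H3K4me3 had 7.42 ± 4.57 far and 10.2 ± 5.0 near, a log2 ratio of −0.61 ± 0.52. All 3 passed the exact sign-flip test over 6 libraries (adjusted p = 0.0417), and both sides of each ratio came from the same libraries (SD, n = 6). The H3K4me3 value rested in part on drone replicate 1, with 22 far and 11 near members. Without it the mean was −0.40 ± 0.11 (n = 5).

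For H3K27me3 no such decline was detected. It had 214.5 ± 14.7 members per Mb at 20 kb or more and 208.7 ± 11.5 within 5 kb, a log2 ratio of 0.038 ± 0.042 (exact sign-flip test, n = 6, adjusted p = 0.125). The call depended on which gaps were counted. With a limit of 100 kb the ratio was −0.24, with 30 kb it was 0.13, with protein-coding genes alone 0.20, and with far set at 10 kb 0.084, each with an adjusted p of 0.03125 (exact test, n = 6). In finer steps the H3K27me3 density was lowest in the first kilobase beside a gene, at 119.6 ± 10.5 per Mb, then 211.6 between 1 and 2 kb, 237.5 to 250.1 between 2 and 50 kb, and 159.4 ± 12.7 beyond 50 kb. The last step contains the interior of the longest gaps. A member must lie wholly inside the gap, so peaks that straddle a gene end are not in the first step and its density is lowered for every mark.

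**Figure D3:**
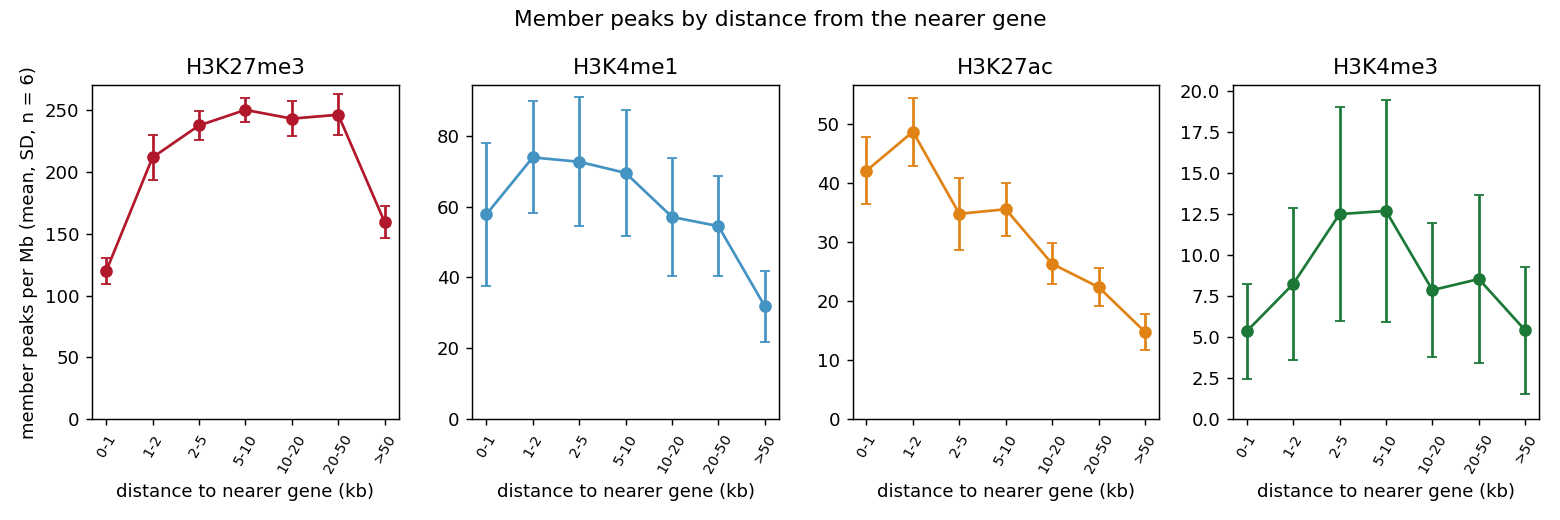
Member peaks per Mb by distance of the peak midpoint from the nearer gene, in 7 steps; points are means of 6 libraries and bars are SD. H3K27ac is lowest beyond 50 kb, at 14.8 per Mb, while H3K27me3 is lowest in the first kilobase and lies at 237.5 to 250.1 per Mb between 2 and 50 kb.

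Active marks were gathered in few gaps. H3K27ac was missing from 71 gaps in all 6 libraries, and the 20 fullest gaps held 66.5% of its 3031 members. The densest was the 69.7 kb between the microRNA gene Mir87-2 and LOC113219210 (chr13:9610456-9680183). It held 33 and 32 H3K27ac members in drones, 34 and 39 in queens and 26 and 35 in workers, which covered 26.2% of it, together with 12 to 20 H3K4me1 members per library and no H3K27me3 in any. The gap from LOC102656821 to LOC102653628 (chr4:545984-616783) had 24 to 28 H3K27ac members per library, and it too lacked H3K27me3. The third, between 2 non-coding genes, LOC100578444 and LOC100576657 (chr5:6744732-6830345), had 14 and 16 in drones, 25 and 29 in queens and 21 and 24 in workers. Its neighbour across LOC100578444, which starts at Mir9888, averaged 184.3 H3K27ac members per Mb.

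H3K4me1 followed neither of these patterns alone. Its 3 densest gaps were all filled with H3K27me3 and had no H3K27ac member in any library. Between Mir3797 and LOC107965700 (chr16:3229061-3284103) there were 29 and 31 H3K4me1 members in drones, 33 and 26 in queens and 15 and 19 in workers, beside 25 to 28 H3K27me3 members per library. Between LOC102656349 and Mir6002 (chr16:3592476-3645045) there were 30 and 38, 31 and 21, and 10 and 16 H3K4me1 members in drones, queens and workers, beside 26 to 39 of H3K27me3. The third, from LOC102655399 to LOC724979 (chr8:11553046-11617212), had 9 to 26 H3K4me1 and 37 to 41 H3K27me3 members per library. Both of the first 2 lie on chromosome 16 beside a microRNA gene. These 3 do not stand for all gaps. Over all 202, H3K4me1 density had a Spearman rho of 0.54 with H3K4me3, 0.38 with H3K27ac and 0.21 with H3K27me3. The Pearson r values were 0.24, 0.22 and 0.26, all given as a description.

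The company a peak kept differed between the gaps and the rest, compared within libraries of the same caste and replicate number (any overlap of 1 bp, description without a test). H3K4me1 members overlapped an H3K27me3 peak in 50.4% ± 5.77 of cases, against 22.6% ± 0.556 of H3K4me1 peaks elsewhere (SD, n = 6). They overlapped H3K27ac in 15.1% ± 3.14, against 43.0% ± 3.20 elsewhere. H3K4me3 members overlapped H3K27ac in 25.7% ± 9.72, against 78.8% ± 7.53, and H3K27me3 in 31.9% ± 13.4, against 8.05% ± 3.52. H3K27ac members overlapped H3K27me3 in 12.3% ± 3.58, against 2.83% ± 0.519 elsewhere. In the reverse direction H3K27me3 members overlapped H3K4me1 in 11.2% ± 2.95, against 19.7% ± 4.15 elsewhere. They overlapped H3K27ac in 1.27% ± 0.343, against 3.55% ± 0.787. H3K27me3 covers more of the gaps than of the rest, 12.95% against 5.34% on average. H3K27ac covers less of them, 1.26% to 1.57% by library, against 6.16% to 8.15% of the rest. The part of coverage in these overlaps was not tested. With protein-coding genes alone setting the gaps, the share of H3K4me3 members on H3K27ac was 42.8%, and that of H3K4me1 members on H3K27ac 23.0%. With a gap limit of 100 kb the share of H3K27ac members on H3K27me3 was 22.0%.

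Some gaps lie beside genes that carry a name rather than a locus number. Each such gap also borders another gene, and a link between its marks and the named gene was not tested. There were 11 gaps next to a named protein-coding gene, taken by their annotation and not by their values. H3K27me3 filled the gap beside Def1, which encodes the antimicrobial peptide defensin 1 (chr6:8675024-8755612), with 52 and 51 members in drones, 48 and 50 in queens and 45 and 38 in workers. H3K27ac there had no member in drones, 1 in each queen library and 4 in each worker library. The gap beside Mcdp, the gene of the venom's mast cell degranulating peptide, had 28 to 38 H3K27me3 members per library and no H3K27ac. Beside TpnCIIIa, a troponin C gene of muscle, there were 12 and 9 H3K27me3 members in drones, 19 and 16 in queens and 18 and 18 in workers. Beside CPR11, a cuticular protein gene, there were 20 and 15, 28 and 26, and 28 and 24.

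The other 7 gaps had at most 5 H3K27me3 members in any library. The gap at 5-ht7, a serotonin receptor gene, held no H3K27ac, H3K27me3 or H3K4me3 member in any library, and at most 2 H3K4me1 members. The 196.4 kb beside 5-HT2beta, another serotonin receptor gene, held no H3K27ac and at most 2 H3K27me3 members. Beside Oa1, an octopamine receptor gene (chr15:3326665-3428612), H3K4me1 had 4 and 5 members in drones, 20 and 10 in queens and 12 and 12 in workers, and H3K27ac had 1 to 5. Beside sGC-alpha1, a subunit of soluble guanylyl cyclase, H3K4me1 had 12 and 11 in drones, 26 and 24 in queens and 11 and 8 in workers, with 2 to 6 H3K27ac members. Beside Abscam, the bee's Dscam cell adhesion gene, H3K27ac had 0 to 3 and H3K4me1 1 to 6 members per library, and beside Grp H3K27ac had 1 in every library.

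Mblk-1 stood apart in this group. It encodes a transcription factor first described in the large Kenyon cells of the bee's mushroom bodies, a brain centre of learning. The 151.1 kb between Mblk-1 and LOC408520 (chr15:7038342-7189451) held 41 and 37 H3K27ac members in drones, 14 and 36 in queens and 27 and 38 in workers. H3K27ac covered 32.7% of it on average, the highest coverage of any gap by this mark. The low count of queen replicate 1 is 1 library's value. H3K4me1 there had 24 and 38 members in drones, 7 and 10 in queens and 1 and 4 in workers, with no overlap between drones and females. Such a separation with drones higher in H3K4me1 was seen in 20.3% of gaps and in 18.9% of 80 kb windows outside them. H3K27me3 had 0 to 4 members.

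**Figure D4:**
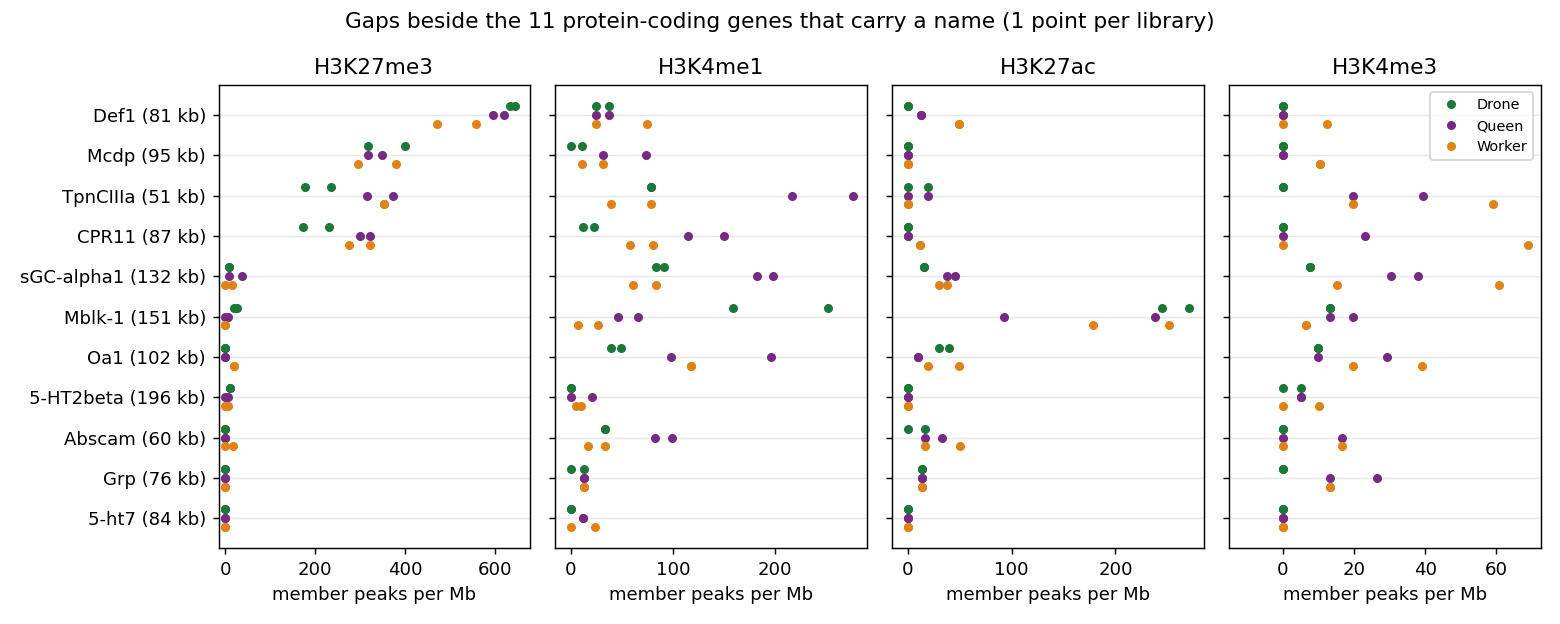
Member peaks per Mb in the gaps beside the 11 protein-coding genes that carry a name, 1 point per library, ordered by H3K27me3; gap length is given beside each gene. Def1, Mcdp, TpnCIIIa and CPR11 have H3K27me3 in every library, Mblk-1 has the highest mean H3K27ac density of the 11, and 5-ht7 has almost no member of any mark.

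Non-coding neighbours showed both states. The 9 gaps beside a tRNA gene had a median of 496.0 H3K27me3 members per Mb and ranged from 15.6 to 725.9. The 11 beside a microRNA gene had a median of 61.3 and ranged from 0 to 856.3. The median over all gaps was 147.4. The microRNA group thus included both the densest H3K27ac gap and the third densest H3K27me3 gap. No test was run on these groups.

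H3K4me3 in the gaps was mostly found in 1 library only. Peaks of a mark from its 6 libraries were merged into regions, and a region counts as constant where every library has a peak. Of 578 H3K4me3 regions in the gaps 21 were constant, or 3.63%, against 22.0% of H3K4me3 regions elsewhere, and 63.8% were seen in a single library, against 38.0%. The drone libraries had 57 and 67 H3K4me3 members, against 176 to 310 in the female ones, which limits how many gap regions can be constant. The part of this in the contrast with regions elsewhere was not tested. H3K27ac regions were constant in 19.6% of cases in the gaps and 36.5% elsewhere, and H3K4me1 regions in 2.24% and 4.75%. H3K27me3 went the other way, with 38.6% constant in the gaps and 29.1% elsewhere.

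The 21 constant H3K4me3 regions lay in 15 gaps, and 15 of them were 5 kb or more from a gene. An H3K27ac peak in all 6 libraries accompanied 11 of them. They were singled out after their values had been seen. The strongest, by the lowest fold of 6 libraries, lay 24.3 kb from Mblk-1 (chr15:7062635-7066004), with folds of 17.4 and 12.7 in drones, 10.7 and 11.1 in queens and 7.58 and 7.33 in workers. Next came one 29.97 kb from Mir6049 (chr3:7203494-7205437), with 21.2 and 11.7, 7.79 and 11.1, and 7.51 and 6.53 in drones, queens and workers. The same gap, 217.5 kb from Mir6049 to LOC725792, held 2 more constant regions, at chr3:7366185-7367960 and chr3:7345548-7346831. Others lay 8.66 kb from sGC-alpha1 and 4.47 kb from a gene in the gap of Oa1. Folds of different libraries are not on 1 scale and are given only to show that these peaks were clear in each.

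The gap between 2 non-coding genes, LOC113219087 and LOC100578194 (chr11:4880741-4975153, 94.4 kb), had the highest H3K4me3 density and stood apart in another way. It held 16 and 18 H3K4me3 members in drones, 12 and 8 in queens and 12 and 15 in workers, and no H3K27ac. These were 28.1% and 26.9% of all H3K4me3 members of the drone libraries, against 3.43% to 8.52% in females. The median local background of these peaks was 523.5 to 1029 tags, against 11.9 to 23.6 for the other H3K4me3 members, and 4 of its 5 constant regions had folds of 1.33 to 2.88. Its neighbour just under the length limit, from LOC102654883 to LOC113219114, had 33.9 H3K4me3 peaks per Mb. Without the gap at LOC113219087 no direction or call of the comparisons of marks and castes changed.

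Castes were compared over 2 libraries each, a design in which an exact permutation test cannot give a p below 0.333, so no caste difference could pass the threshold in this test. For H3K4me3 there were 2.75 and 3.23 members per Mb in drones, against 9.12 and 11.2 in queens and 14.95 and 8.49 in workers. The drone values lay below all female ones, with log2 ratios of −1.77 for drones over queens and −1.97 for drones over workers (SD between libraries of a caste 0.37, exact p = 0.333 each, adjusted p = 0.8). Estimated tags moved with this, at 5.21 and 4.20 M in drones, 13.6 and 19.5 M in queens and 19.5 and 15.3 M in workers. The study's counts of mapped reads did not. The part of the estimated tags was not tested apart from the values that follow. Relative to the same library's density outside the gaps, the differences were −0.73 for drones minus queens and −1.19 for drones minus workers (SD 0.36, exact p = 0.333, adjusted p = 0.5). With each list held to its 3727 peaks of smallest p, the log2 ratios were 0.36 for drones over queens and 0.059 for drones over workers, so the direction turned. Relative to the rest the difference then turned to 0.27 for drones minus queens and was −0.029 for drones minus workers.

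H3K4me1 was the other mark with a separation in members per Mb. It had 53.4 and 65.6 members per Mb in drones and 67.5 and 59.1 in queens, against 33.5 and 38.3 in workers. The log2 ratios were 0.73 for drones over workers and 0.82 for queens over workers (SD 0.16, exact p = 0.333, adjusted p = 0.8). Estimated tags were 13.6 and 13.1 M in drones, 25.1 and 23.2 M in queens and 15.7 and 16 M in workers. Relative to the same library's density outside the gaps, the differences were 0.10 and 0.062 (SD 0.048, exact p = 0.333, adjusted p = 0.5). With 12331 peaks per list the density ratios turned to −0.14 and −0.054, and the differences relative to the rest to −0.15 and −0.057.

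H3K27me3 and H3K27ac were close in the castes in members per Mb. H3K27me3 had 220.7 and 232.5 members per Mb in drones, 234.4 and 220.3 in queens and 231.2 and 198.9 in workers. H3K27ac had 25.4 and 20.6 in drones, 21.3 and 26.4 in queens and 23.2 and 29.2 in workers. No pair of castes differed by more than 0.19 on the log2 scale in either mark (exact p of 0.667 or above, adjusted p of 0.8 or above). All caste ranges of members per Mb overlapped. Relative to the same library's density outside the gaps, H3K27me3 was higher in drones than in all females. The differences were 0.039 for drones minus queens and 0.062 for drones minus workers (SD 0.031, exact p = 0.333, adjusted p = 0.5). In the same measure H3K27ac was lower in queens than in workers, with a difference of −0.18 (SD 0.11, exact p = 0.333, adjusted p = 0.5). The other pairs of castes overlapped in both marks.

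Castes were also compared gap by gap. Gaps in which both drone libraries lay on one side of all 4 female libraries were counted, and the same was done in 2403 windows of 80 kb outside the gaps to give the background. Drones were higher in H3K27me3 in 21 of 202 gaps, or 10.4% (background 8.41%), and lower in 23, or 11.4% (13.8%). For H3K27ac they were higher in 12, or 5.94% (5.74%), and lower in 15, or 7.43% (16.6%). For H3K4me1 41 gaps were higher, or 20.3% (18.9%), and 47 lower, or 23.3% (16.3%). For H3K4me3 4 gaps were higher, or 1.98% (0.458%), and 32 lower, or 15.8% (27.1%). Windows outside the gaps hold more H3K27ac, H3K4me1 and H3K4me3 peaks than gaps do, and the part of this in the shares was not tested. The gaps named next had the largest mean difference in their mark and are given as a description.

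The H3K27me3 gap with the largest difference lay between LOC411213 and LOC411212 (chr7:11563899-11685735, 121.8 kb). It had 71 and 73 H3K27me3 members in drones, against 33 and 20 in queens and 22 and 9 in workers. H3K27ac there had 1 and 1 in drones, 1 and 2 in queens and 7 and 7 in workers. A shorter gap, LOC408808 to LOC113218549 (chr4:8140326-8194646), showed 23 and 23 H3K27me3 members in drones, against 6 and 6 in queens and 6 and 5 in workers, with H3K27ac at 1 and 1 in drones, 0 in queens and 3 and 5 in workers. In both, workers had the most H3K27ac members. In the third, LOC100578882 to LOC408569 (chr1:22388609-22554374), drones had 91 and 108, queens 62 and 59 and workers 70 and 46 H3K27me3 members, and no library had H3K27ac.

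The largest H3K27ac difference was in a gap filled with H3K27me3, where drones were higher. Between LOC726842 and LOC102653847 (chr7:1182475-1291491, 109.0 kb) drones had 22 and 12 H3K27ac members, against 0 in all 4 female libraries. H3K27me3 had 83 and 86 members there in drones, 92 and 85 in queens and 79 and 74 in workers, covering 51.8% of the gap. Of the drone H3K27ac members 21 of 22 and 12 of 12 overlapped an H3K27me3 peak of the same caste and number. Over all gaps the share of H3K27ac members on H3K27me3 was 18.4% and 14.7% in drones, 10.2% and 11.5% in queens and 9.98% and 9.09% in workers, and without this gap the drone shares were 15.05% and 12.3%. Each library came from several brains and many cell types, so the marks need not share a cell. The other H3K27ac gaps ran the opposite way: LOC113218868 to LOC412448 had 5 and 5 in drones, against 14 and 15 in queens and 16 and 18 in workers, and LOC100578444 to LOC100576657 is given above.

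**Figure D5:**
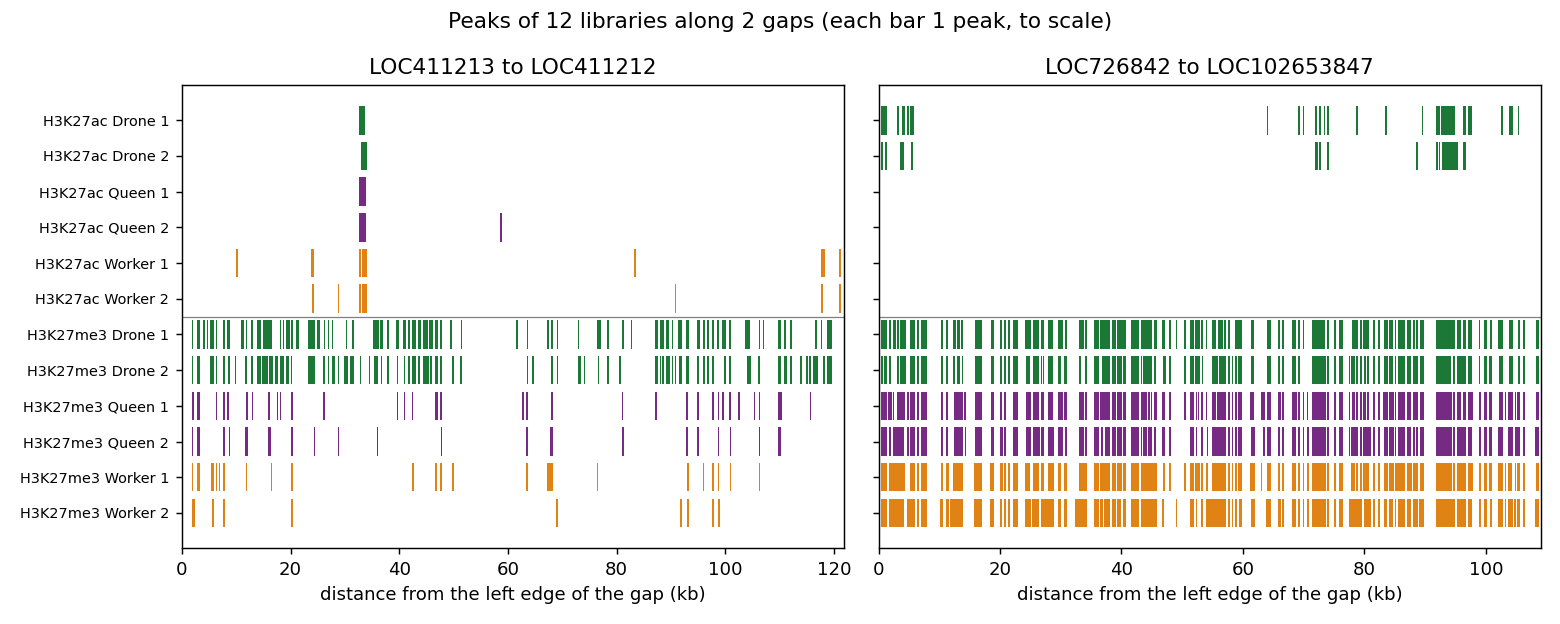
Peaks along 2 gaps, drawn to scale from the left edge in kb, for H3K27ac (top 6 tracks) and H3K27me3 (bottom 6 tracks) in drone, queen and worker libraries. Left, 71 and 73 drone H3K27me3 peaks against 9 to 33 in females; right, H3K27ac in drones alone across a gap filled with H3K27me3 in all libraries.

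H3K4me1 differed most between LOC100578877 and LOC725754 (chr14:8464094-8532328, 68.2 kb), with 27 and 32 members in drones, against 1 and 4 in queens and 0 and 1 in workers. H3K27ac had 9 and 7 there in drones, 1 and 3 in queens and 1 and 2 in workers, and H3K27me3 44 and 49, 38 and 36, and 26 and 29. From LOC102656509 to LOC102656563 (chr15:4615006-4667341) H3K4me1 had 16 and 20 members in drones, against 1 and 2 in queens and 2 and 1 in workers, and H3K27ac had 12 and 11, 4 and 9, and 5 and 6. In the 154.7 kb from LOC102653574 to LOC100576080 (chr11:1903990-2058722), filled with H3K27me3, H3K4me1 had 56 and 69 in drones, 17 and 20 in queens and 9 and 12 in workers. For H3K4me3 drones were low from LOC100577959 to LOC113219074 (2 and 0, against 3 and 8 in queens and 9 and 6 in workers) and from LOC410696 to LOC408579 (0 and 0, against 4 and 6 in queens and 4 and 3 in workers). The third H3K4me3 gap by this rule was the one with the raised background, where drones were higher.

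At the level of merged regions, a peak in both libraries of one caste and in neither of the other was counted in the gaps and, as the background, over all regions of the chromosomes. H3K27me3 shares lay near the background or below it, and the pairs draw on the same libraries and regions. For H3K27me3, 5.65% of 6252 gap regions were present in drones and absent in queens (background 5.79%), and 5.21% the reverse (6.75%). For drones against workers the shares were 6.67% (7.40%) and 5.93% (8.19%), and for queens against workers 4.11% (4.81%) and 3.87% (4.39%). For H3K27ac, with 889 gap regions, they were 7.54% (4.37%) and 10.1% (9.44%) for drones against queens, 8.77% (5.70%) and 14.4% (10.4%) for drones against workers, and 6.30% (6.28%) and 9.0% (5.14%) for queens against workers. The 95% exact binomial intervals cover counting error only. For H3K27ac regions of drones without queens the interval was 5.89% to 9.47%, above the background. It contained the background for queens without drones (8.22% to 12.3%) and for queens without workers (4.79% to 8.10%). The other H3K27ac intervals lay above their backgrounds. No H3K27me3 interval lay above its background. In H3K4me1 and in H3K4me3 some intervals lay above, some below and some contained it. For H3K4me1, with 3173 gap regions, they were 11.6% (10.4%) and 13.3% (13.3%) for drones against queens, 14.97% (15.1%) and 5.67% (5.29%) for drones against workers, and 10.5% (11.7%) and 1.61% (1.70%) for queens against workers. For H3K4me3, with 578, they were 1.90% (0.695%) and 11.2% (17.6%) for drones against queens, 1.38% (0.973%) and 11.2% (8.86%) for drones against workers, and 5.54% (9.10%) and 4.15% (2.26%) for queens against workers. With equal numbers of peaks per library, 24.7%, 21.6% and 20.6% of H3K4me3 gap regions differed in either direction between drones and queens, drones and workers, and queens and workers, against 13.1%, 12.6% and 9.69% with the full lists. Neighbouring regions of 1 domain are not independent, and the differences from the background were not tested.

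Libraries of 1 caste shared more gap sequence than libraries of different castes in each mark. The Jaccard index, the base pairs covered in both lists over those covered in either, averaged 0.71 within castes and 0.63 between castes for H3K27me3. It was 0.66 and 0.48 for H3K27ac, 0.36 and 0.17 for H3K4me1, and 0.45 and 0.29 for H3K4me3. The observed pairing gave the largest difference of the 15 possible pairings of 6 libraries in every mark (exact one-sided p = 0.0667, the smallest possible). Outside the gaps the within-caste and between-caste values were 0.69 and 0.59 for H3K27me3, 0.72 and 0.62 for H3K27ac, 0.39 and 0.21 for H3K4me1, and 0.65 and 0.53 for H3K4me3. Of the 4 marks H3K27me3 alone had higher values in the gaps than outside, a difference that was not tested.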

How the data were processed

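Central brain ChIP-seq peak lists of 24 libraries (4 marks, 3 castes, 2 libraries each) were analysed, grouped by the labels. According to the study's methods and notes the authors demultiplexed reads with bcl2fastq 2.17, aligned them with BWA 0.7.17 to Amel_HAv3.1 and called peaks in each library with MACS2 2.2.7.1 and a genome size of 270000000 bp. Control and remaining settings are not given in the sources used here, and the input libraries were not analysed here. The deposited fold is the enrichment of a summit over its local background, set by the authors' peak caller. The deposited −log10 p and −log10 q are its significance, and lists end near a −log10 q of 2. The deposited score, an integer made by the authors' peak caller, was not used. Summit pileup and local background were recovered from fold and −log10 p. Tags per library (4.20 to 25.1 M) were estimated from the lowest local background and are not the sequenced depth. Depth differed between libraries, which can change how many peaks are called, and reads were not used here to equalise it.

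Gaps, members, overlaps (1 bp or more) and merged regions were computed in Python 3.11.15 with numpy 2.4.6, pandas 2.3.3 and scipy 1.17.1, and plots with matplotlib 3.10.9. Each library gave 1 value per measure. Ratios within libraries were tested by exact sign-flips over 6 libraries, marks and castes by exact permutation, with Benjamini-Hochberg adjustment within each family. Scripts were tested on simulated peaks. Gaps were named by their neighbours: the 5 longest, for each mark the 3 densest and the 3 with the largest drone difference among gaps in which drones lay apart from all females, and 3 on either side of the 50 kb limit. Gaps beside named genes were added by annotation after the files had been seen. The members, lists and tests were chosen with earlier results of these data known. Alternatives were other gap limits, protein-coding genes alone, a −log10 q of at least 5, equal numbers of peaks, base pairs covered, gaps of 10 to 50 kb as the comparison, far from 10 kb, peak midpoints, 50% overlap, a replicate block and leaving out each library.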

Additional observations from a re-analysis of the deposited data

Results flagged for a closer look

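Peaks outside chromosomes 1 to 16 lie in no gap as defined and were left out of every comparison. There were 2156 of them in the 24 lists, on sequences other than these chromosomes, and they were not sorted by sequence. H3K4me3 had 1067 of these, or 2.44% of its deposited peaks, with 1.40% to 3.60% in single libraries. The shares were 0.616% for H3K4me1, 0.163% for H3K27me3 and 0.119% for H3K27ac. The signal was noted because it falls outside the measurements reported, and no control list was analysed with it.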

How the results depend on the processing

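The excess of H3K27me3 and the deficits of the other marks in the gaps kept their direction and their side of the threshold under every alternative, except that with 1 library left out no exact test of 5 libraries can give a p below 0.0625. The log2 ratios to the rest then ran between −2.27 and −2.22 (H3K27ac), 1.23 and 1.26 (H3K27me3), −0.75 and −0.72 (H3K4me1) and −2.40 and −2.04 (H3K4me3), and the far over near ratios between −1.02 and −0.96 (H3K27ac), −0.62 and −0.57 (H3K4me1) and −0.67 and −0.40 (H3K4me3). Caste ratios could not pass the exact permutation test of 2 libraries against 2. Without 1 library the caste log2 density ratios that turned ran between −0.21 and 0.11 (H3K27ac, drone over queen), −0.30 and 0.041 (H3K27ac, queen over worker), −0.049 and 0.041 (H3K27me3, drone over queen), −0.029 and 0.19 (H3K27me3, drone over worker), −0.024 and 0.19 (H3K27me3, queen over worker), −0.25 and 0.051 (H3K4me1, drone over queen) and −0.56 and 0.26 (H3K4me3, queen over worker). Differences in the ratio to the rest that turned ran between −0.0024 and 0.19 (H3K27ac, drone minus queen), −0.18 and 0.0080 (H3K27ac, drone minus worker), −0.013 and 0.060 (H3K27me3, queen minus worker) and −0.016 and 0.099 (H3K4me1, drone minus queen), and the H3K4me1 width difference between −0.016 and 0.0021. The causes of the changes given here were not tested.

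With a gap limit of 30 kb the H3K27me3 far over near ratio was 0.13, the H3K4me1 width difference 0.0039 and the share of H3K4me1 on H3K27ac 18.6%. With 100 kb the drone over queen ratio of H3K27ac was 0.18 and drone over worker 0.050, drone over queen of H3K27me3 0.0026, the H3K27ac ratio to the rest 0.14 for drone minus worker, the H3K27me3 far over near ratio −0.24, the H3K27ac width difference 0.0049, and H3K27ac on H3K27me3 22.0% and the reverse 1.66%. With protein-coding genes alone queen over worker of H3K27ac was 0.011, its ratio to the rest −0.019 for drone minus queen, H3K27me3 far over near 0.20, the width differences 0.049 (H3K27ac), 0.11 (H3K27me3), 0.0013 (H3K4me1) and −0.32 (H3K4me3), H3K27me3 regions that differ between drones and workers 13.5%, H3K27me3 on H3K27ac 1.71%, H3K4me1 on H3K27ac 23.0% and H3K4me3 on H3K27ac 42.8%. The H3K27ac, H3K27me3 and H3K4me3 widths passed the threshold there.

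With a −log10 q of at least 5, queen over worker of H3K4me3 was 0.12, the H3K4me1 ratio to the rest −0.12 for drone minus queen and −0.015 for drone minus worker, H3K27me3 far over near −0.0074, the H3K27ac width difference 0.0048, H3K4me1 regions 17.8% between drones and workers and 13.8% between queens and workers, and H3K27me3 on H3K4me1 7.26%. With equal numbers of peaks, drone over queen was 0.23 (H3K27ac), 0.035 (H3K27me3) and 0.36 (H3K4me3), drone over worker −0.14 (H3K4me1) and 0.059 (H3K4me3), and queen over worker −0.054 (H3K4me1). The H3K4me1 ratio to the rest was then −0.088 for drone minus queen, −0.15 for drone minus worker and −0.057 for queen minus worker, that of H3K4me3 0.27 for drone minus queen, and the H3K4me1 width difference 0.0094. Regions that differ were 8.90% (H3K27me3, queens and workers), 20.5% and 10.9% (H3K4me1, drones and queens, queens and workers) and 24.7%, 21.6% and 20.6% (H3K4me3), and overlaps were 4.36% (H3K27ac on H3K4me3), 7.08% (H3K27me3 on H3K4me1), 0.199% (H3K27me3 on H3K4me3) and 38.5% (H3K4me3 on H3K27ac).

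By base pairs covered, the H3K27me3 ratios were 0.070 for drone over queen, −0.032 for drone over worker and −0.10 for queen over worker, drone over queen of H3K4me1 was 0.12, and the H3K27ac ratio to the rest was 0.024 for drone minus worker. With at least 50% of a peak overlapping, H3K27me3 regions that differ were 12.7%, 14.9% and 9.42%, H3K27me3 on H3K27ac 0.845% and H3K27me3 on H3K4me1 8.05%. With far set at 10 kb, H3K27me3 far over near was 0.084. Replicate numbers were shared between castes, but the deviations of same-numbered libraries correlated between −0.32 and 0.43 over 202 gaps, so the libraries share only a number. With the replicate block the width differences of −0.036 (H3K27ac), 0.099 (H3K27me3) and −0.38 (H3K4me3) had an adjusted p of 0.0417 in the exact test, and the other 36 results were called as before. Leaving out the gap from LOC113219087 to LOC100578194, an alternative chosen after seeing the data, changed none of 67 results. Drone libraries had the lowest estimated tags in each mark, and the part of this in their sparse H3K4me3 lists was not tested.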
